A study of Homo sapiens with 12 samples.

Results

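The 7 genes described here are the aryl hydrocarbon receptor AHR, its partner ARNT, and 5 genes known as its targets, CYP1A1, CYP1B1, TIPARP, AHRR and ALDH3A1. They were chosen as a named set because CYP1B1 moved in opposite directions with EDTA in 2 derivatives of the cell line, Vector and B4-4. They are 7 of 58233 genes in the count table, and all 7 were among the 15749 genes with enough counts to be tested. Because the choice rested on the contrasts of EDTA with NA in Vector and in B4-4, values from those contrasts are given as a description without a test.

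The aryl hydrocarbon receptor is a transcription factor of the bHLH-PAS family that waits in the cytoplasm in a complex with HSP90 chaperones. When a ligand such as a dioxin, a polycyclic aromatic hydrocarbon or a tryptophan breakdown product binds, it moves to the nucleus, pairs with ARNT and binds short DNA elements with the core letters GCGTG. The cytochrome P450 genes CYP1A1 and CYP1B1 are its best known targets, while TIPARP and AHRR are targets whose products damp the receptor. In the breast, CYP1A1 and CYP1B1 are also known as enzymes that hydroxylate oestrogens.

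RNA was measured in 12 libraries of poly(A)-selected RNA from detached MCF10-A cells, an established line of non-tumour mammary epithelial cells. The series asks about the integrin made of the alpha 6 and beta 4 chains in detached cells. Cells of all 6 groups were grown in medium with 5% horse serum for passaging, released with trypsin and held for 3 hours without serum on dishes coated with poly-HEMA, which prevents attachment. The groups were Vector NA, Vector EDTA, B4-4 NA, B4-4 EDTA, Addback NA and Addback EDTA, each with 2 libraries. EDTA binds divalent cations, calcium among them. The meaning of NA, the amount of EDTA and its timing, and the construction of the B4-4 and Addback cells: none of these is stated in the labels. The labels do not say whether the 2 libraries of a group came from separate cultures, so p-values measure only the spread between these libraries, which may be technical.

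Library totals ran from 15685376 to 22156173 counts. ITGB4, which encodes the beta 4 chain, ranged from 182 to 395 CPM among the 4 B4-4 libraries, and no Vector or Addback library was under 1060 CPM. The basal keratin KRT5 lay between 4319 and 6782 CPM, and all 9 basal mammary epithelial markers were detected well enough to be tested. Of 8 luminal markers 5 were tested: KRT8 lay between 169 and 575 CPM, KRT18 between 303 and 450, GATA3 between 8.18 and 34.5 and FOXA1 between 2.69 and 14, while ESR1 was at most 1.23 CPM. The untested PGR, KRT19 and ELF5 reached no more than 1, 8 and 4 counts. The 2 B4-4 NA libraries differed from each other by at least 2-fold in 370 of 10584 genes at a mean of at least 5 CPM, and the 2 Addback EDTA libraries did so in 203 of 10462 genes. In each of the other 4 groups 3 to 8 genes did so. Addback EDTA 2 is also the only library with another lane tag in its label, so no comparison could be made within its lane. Where leaving out a library of these pairs ended a call of one of the 7 genes or moved its fold by more than 1.5 times, the value without it is given beside the result. Levels are CPM, that is counts scaled to a fixed library size after TMM normalisation. In bulk RNA, a change in the share of cells that express a gene and a change in RNA per cell cannot be told apart.

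The upstream sequences of the targets CYP1A1, TIPARP and AHRR are shown because the elements that the receptor binds hold the core letters GCGTG. RefSeq promoter windows on GRCh38.p14, from 250 bases before to 50 bases after an annotated start, matched 5 of the 7 genes. Elements farther from the start lie outside these windows, and the matches below are not taken from known binding sites. The windows below are written 5′ to 3′ on the strand of the gene, and capitals mark GCGTG, or its reverse complement CACGC where the match is on the other strand. CYP1A1 lies on the minus strand at chr15:74725479-74725778, TIPARP window 1 on the plus strand at chr3:156674340-156674639, and AHRR windows 1 and 2 on the plus strand at chr5:321464-321763 and chr5:322360-322659.
CYP1A1: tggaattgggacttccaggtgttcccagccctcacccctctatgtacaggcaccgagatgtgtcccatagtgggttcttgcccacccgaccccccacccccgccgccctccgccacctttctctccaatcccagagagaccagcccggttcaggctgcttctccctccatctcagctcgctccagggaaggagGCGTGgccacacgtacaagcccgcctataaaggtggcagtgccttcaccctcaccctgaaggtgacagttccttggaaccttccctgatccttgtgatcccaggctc
TIPARP window 1: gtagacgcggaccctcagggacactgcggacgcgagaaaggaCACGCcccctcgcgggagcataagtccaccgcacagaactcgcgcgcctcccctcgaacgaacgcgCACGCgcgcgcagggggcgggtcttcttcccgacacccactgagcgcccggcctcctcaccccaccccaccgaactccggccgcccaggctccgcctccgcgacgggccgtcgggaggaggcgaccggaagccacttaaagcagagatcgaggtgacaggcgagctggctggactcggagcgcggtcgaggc
AHRR window 1: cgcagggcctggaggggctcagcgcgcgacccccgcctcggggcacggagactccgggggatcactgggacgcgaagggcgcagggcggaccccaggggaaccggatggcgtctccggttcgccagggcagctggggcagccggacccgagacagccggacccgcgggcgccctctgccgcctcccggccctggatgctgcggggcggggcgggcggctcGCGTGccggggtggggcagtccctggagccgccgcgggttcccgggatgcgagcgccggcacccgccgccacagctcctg
AHRR window 2: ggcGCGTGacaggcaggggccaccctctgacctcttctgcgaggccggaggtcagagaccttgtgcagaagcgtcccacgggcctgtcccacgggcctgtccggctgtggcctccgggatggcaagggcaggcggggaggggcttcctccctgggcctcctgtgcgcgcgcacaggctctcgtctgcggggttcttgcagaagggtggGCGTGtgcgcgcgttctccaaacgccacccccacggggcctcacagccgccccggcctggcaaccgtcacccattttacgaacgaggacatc
The CYP1A1 window held 1 match, whose first base is at -57 from the annotated start. TIPARP window 1 held 2 matches on the other strand, with first bases at -208 and -142. AHRR window 1 held 1 match at -30, which was also the single match in these windows to the longer form TNGCGTG, and AHRR window 2 held 2 matches at -247 and -42. The AHR window (chr7:17298402-17298701, plus strand) held 1 match, whose first base is at +38 when the start base is counted as +1. The ARNT window (chr1:150876550-150876849, minus strand) and TIPARP windows 2 and 3 held none, which says only that these letters are not in those windows. GCGTG on either strand occurred in 36.5% of 35116 RefSeq promoter windows of this length, and TNGCGTG, which contains GCGTG, in 5.51%. A match is a description of the letters and not a measured binding site. CYP1B1 and ALDH3A1 are named without a window.

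The 7 genes covered a wide range of levels and of spread across libraries. Per kilobase of exon, the mean over 12 libraries was 36.8 CPM per kb for CYP1B1, 28.9 for TIPARP, 16.9 for CYP1A1, 10.7 for ARNT, 9.61 for ALDH3A1, 3.29 for AHR and 0.0926 for AHRR. The highest library exceeded the lowest by 133-fold for CYP1A1, 113-fold for CYP1B1, 9.06-fold for TIPARP and 8.5-fold for ALDH3A1, while AHRR ran from 1 to 38 counts. For AHR and ARNT the same ratio was 2.21 and 1.54. The receptor and its partner varied less from library to library than any of the 5 targets. The lowest library of CYP1A1, CYP1B1, TIPARP and ARNT was B4-4 EDTA 2.

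**Figure D1:**
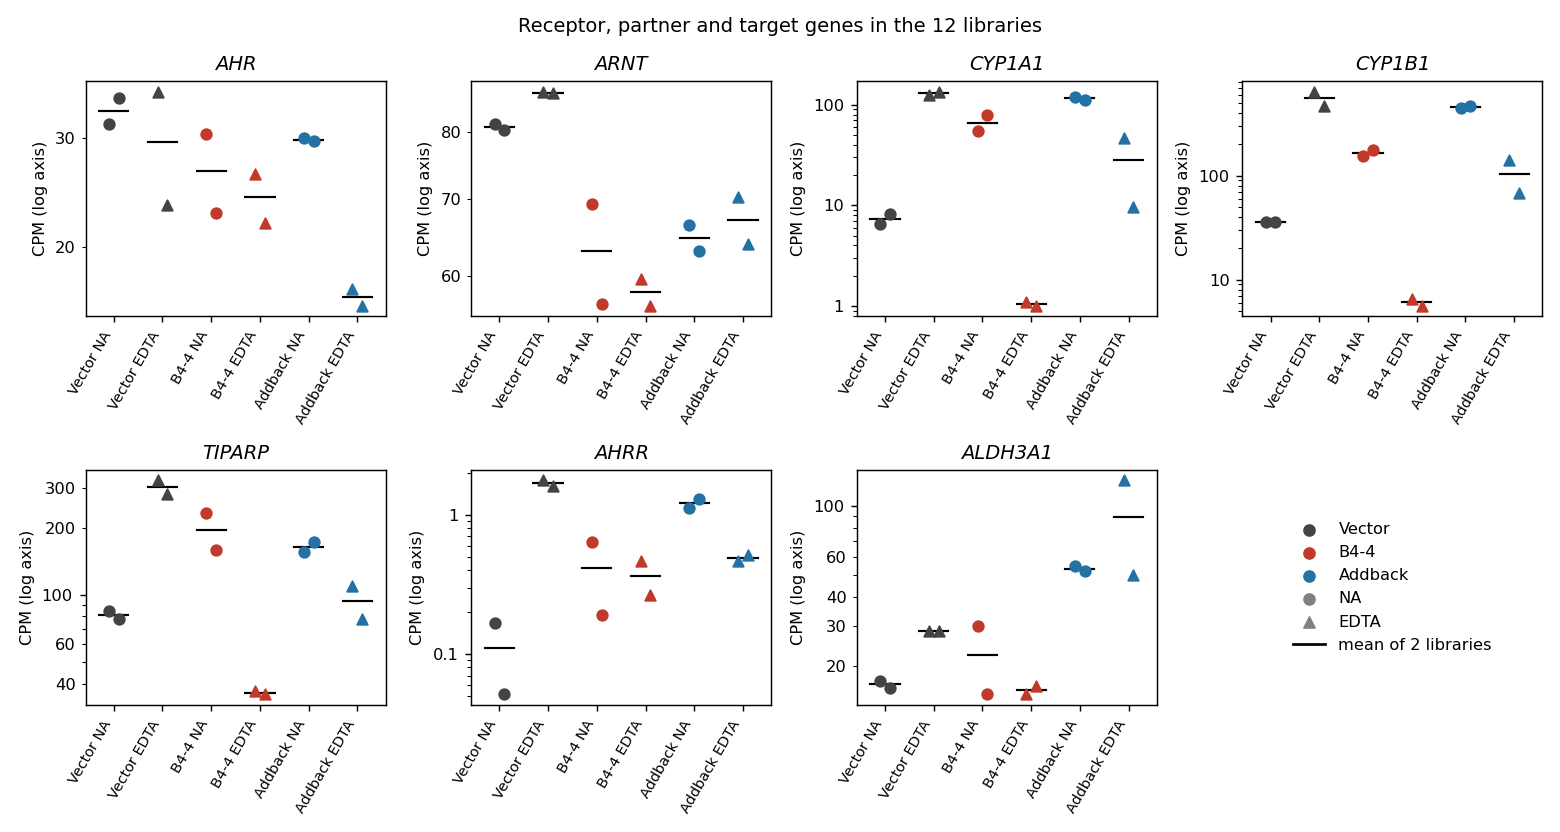
Each panel shows the CPM of a gene (log axis) in the 12 libraries, by group, with a bar at the mean of 2 libraries. CYP1A1, CYP1B1 and TIPARP are lowest in B4-4 EDTA and high in Vector EDTA, AHRR is also highest in Vector EDTA but lowest in Vector NA, and AHR is lowest in Addback EDTA.

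AHR (ENSG00000106546, chromosome 7, 16916359 to 17346152) encodes the receptor. Vector NA libraries had 31.6 and 34.8 CPM of it, and Vector EDTA libraries 35.6 and 23.4 CPM. The B4-4 levels were 30.4 and 22.7 CPM (NA), against 26.2 and 21.9 CPM (EDTA). The Addback levels were 30 and 29.6 CPM (NA), against 17.1 and 16.1 CPM (EDTA). The Addback EDTA libraries were the lowest of all 12, while NA and EDTA libraries overlapped in Vector and in B4-4. With EDTA, AHR in Addback fell by 0.85 on the log2 scale (SE 0.20, a 1.8-fold difference, adjusted p = 0.0127). That call was lost when Addback NA 1, Addback NA 2 or Addback EDTA 2 was left out (-0.83, -0.85 and -0.80, adjusted p = 0.0924, 0.065 and 0.0818). The changes with EDTA were -0.17 (SE 0.19) in Vector and -0.15 (SE 0.19) in B4-4.

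ARNT (ENSG00000143437, chromosome 1, 150809705 to 150876768) encodes the partner that AHR needs to bind DNA. Its levels were 81.3 and 80.3 CPM in Vector NA, 86.8 and 86.5 CPM in Vector EDTA, 69.3 and 56.7 CPM in B4-4 NA, and 59.6 and 56.5 CPM in B4-4 EDTA. Addback libraries had 66.4 and 63.1 CPM (NA) and 70.2 and 63.9 CPM (EDTA). All 4 Vector libraries lay above all libraries of the other derivatives. Its change with EDTA in Addback was 0.05 (SE 0.11, adjusted p = 0.787), and the groups overlapped. It was 0.10 in Vector and -0.12 in B4-4 (both SE 0.11). Per kilobase, ARNT exceeded AHR in every library, by 2.64-fold in Addback NA 2 to 5.1-fold in Addback EDTA 1.

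CYP1A1 (ENSG00000140465, chromosome 15, 74719542 to 74725610) encodes a cytochrome P450 that oxidises polycyclic aromatic hydrocarbons. Its Vector libraries had 6.5 and 8.23 CPM (NA) against 125 and 135 CPM (EDTA). In B4-4 the order was the opposite, with 54.4 and 78.4 CPM (NA) against 1.09 and 1.01 CPM (EDTA). Addback libraries had 121 and 111 CPM (NA) against 46.7 and 9.61 CPM (EDTA). EDTA libraries were thus above NA libraries in Vector and below them in B4-4 and Addback, with no overlap in any derivative. The log2 change with EDTA was 4.13 (SE 0.68) in Vector and -5.97 (SE 0.85) in B4-4, which are the values that go with the choice of genes and have no test. In Addback it was -2.04 (SE 0.61), a 4.13-fold difference that missed the threshold (adjusted p = 0.0636). The Addback EDTA libraries were far apart for this gene. Without Addback EDTA 1 the change was -3.58, and without Addback EDTA 2 it was -1.31. Each of these fits drops 1 of the 2 libraries that were far apart, and with it that spread. DESeq2 called the change on all libraries (-2.06, adjusted p = 0.0124).

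CYP1B1 (ENSG00000138061, chromosome 2, 38066973 to 38109902), whose enzyme hydroxylates oestradiol, had the highest mean level per kilobase over the 12 libraries among the 7. It was not the highest in every library. The ratio of TIPARP to CYP1B1 per kilobase had a median of 1.21, from 0.411 in Addback NA 1 to 7.58 in B4-4 EDTA 2. Vector libraries had 36.1 and 36 CPM (NA) against 641 and 470 CPM (EDTA). B4-4 libraries had 156 and 177 CPM (NA) against 6.52 and 5.64 CPM (EDTA). For Addback the levels were 450 and 466 CPM (NA) against 141 and 68.5 CPM (EDTA). The groups did not overlap within any derivative, and the direction in Vector was opposite to that in B4-4 and Addback. The log2 change with EDTA was 3.94 (SE 0.32) in Vector and -4.77 (SE 0.35) in B4-4, again without a test. In Addback CYP1B1 fell by 2.13 (SE 0.29, 4.37-fold, adjusted p = 0.00242) and remained called when any single library was left out (-2.73 without Addback EDTA 1 to -1.70 without Addback EDTA 2). In a fit of the 4 Addback libraries alone the change of -2.14 had an adjusted p of 0.0877.

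Per kilobase CYP1B1 exceeded CYP1A1 in every library, from 1.29-fold in B4-4 NA 2 to 4.07-fold in Addback EDTA 2, with a median of 2.45. The order of the 6 groups was the same for both genes: Vector EDTA, Addback NA, B4-4 NA, Addback EDTA, Vector NA and B4-4 EDTA. Vector EDTA and Addback NA, the highest neighbours in that order, did not differ by more than their summed SDs for either gene (130 ± 6.95 against 116 ± 7.53 CPM for CYP1A1, 555 ± 121 against 458 ± 11.4 CPM for CYP1B1, SD, n = 2). B4-4 NA and Addback EDTA also lay within their summed SDs for both.

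CYP1B1-AS1 (ENSG00000232973, chromosome 2, 38073447 to 38231651) is an antisense RNA gene that overlaps CYP1B1 on the other strand. Vector libraries had 2.58 and 2.83 CPM (NA) against 23.7 and 27 CPM (EDTA). B4-4 libraries had 9.53 and 8.18 CPM (NA) against 0.983 and 0.746 CPM (EDTA), and Addback libraries 23.4 and 19 CPM (NA) against 9.47 and 5.4 CPM (EDTA). The antisense gene fell by 1.51 with EDTA in Addback (SE 0.23, adjusted p = 0.00121). Its libraries kept the direction of CYP1B1 in each derivative. How the counting treated strand is not stated, so reads of CYP1B1 and of CYP1B1-AS1 cannot be told apart with certainty. CYP1B1 also overlaps RMDN2 on the other strand (32 to 68 counts) and RMDN2-AS1 on its own strand (0 to 42 counts). The ratio of counts of the first pair was not fixed: CYP1B1 had 6.63 times the counts of CYP1B1-AS1 in B4-4 EDTA 1 and 27.1 times in Vector EDTA 1.

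TIPARP (ENSG00000163659, chromosome 3, 156673235 to 156706770) encodes an ADP-ribosyltransferase known to modify and damp AHR. Vector libraries had 85 and 77.6 CPM (NA) against 325 and 282 CPM (EDTA). The B4-4 levels were 232 and 159 CPM (NA) against 37.1 and 35.9 CPM (EDTA). Those of Addback were 155 and 173 CPM (NA) against 110 and 78 CPM (EDTA). As for the P450 genes, EDTA libraries lay above NA in Vector and below NA in B4-4 and Addback without overlap. The changes without a test were 1.90 (SE 0.19) in Vector and -2.42 (SE 0.19) in B4-4. In Addback TIPARP fell by 0.81 (SE 0.18, 1.75-fold, adjusted p = 0.0136). Without Addback NA 1, Addback NA 2 or Addback EDTA 2 that call was lost (-0.88, -0.72 and -0.58, adjusted p = 0.0619, 0.0859 and 0.0946). Its overlapping transcript on the other strand, TIPARP-AS1, had 4 to 39 counts per library.

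AHRR (ENSG00000063438, chromosome 5, 304176 to 438291) encodes the repressor that competes with AHR for ARNT, and it was close to the limit of detection. It had 3 and 1 counts in Vector NA and 38 and 36 in Vector EDTA, and 11 and 3 counts in B4-4 NA against 9 and 5 in B4-4 EDTA. In Addback it had 20 and 24 counts in NA and 8 and 9 in EDTA. At these depths 3 counts are worth 0.135 to 0.191 CPM. Summed over libraries and scaled, EDTA against NA in Vector gave 74 against 4 counts, a ratio of 15.6. The fitted change there was 3.88 (SE 0.61), with 4.86 without Vector NA 1 and 3.27 without Vector NA 2. In B4-4 the counts were 14 against 14, a ratio of 0.868. The fitted change in B4-4 of -0.19 (SE 0.60) became 0.91 when B4-4 NA 1 was left out and -0.77 when B4-4 NA 2 was. These Vector and B4-4 values have no test. In Addback the counts were 17 against 44, a ratio of 0.405 (95% exact interval 0.217 to 0.723). This interval, like those of the AHRR ratios given below, covers counting error only and not the spread between libraries. The Addback change of -1.29 (SE 0.50) missed the threshold (adjusted p = 0.0963). Over fits that left out a library it ran from -1.39 without Addback NA 1 to -1.18 without Addback NA 2. It passed in 2 of those fits alone, without B4-4 NA 1 or B4-4 NA 2, which are not libraries of this contrast. AHRR also shares its strand and part of its span with PDCD6, which had 1008 to 1329 counts per library.

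ALDH3A1 (ENSG00000108602, chromosome 17, 19737984 to 19748943) encodes an aldehyde dehydrogenase of the classical AHR gene battery. Its levels were 17.3 and 16.1 CPM in Vector NA, 28.5 and 28.4 CPM in Vector EDTA, 29.9 and 15.1 CPM in B4-4 NA, and 15.2 and 16.4 CPM in B4-4 EDTA. Addback libraries had 54.7 and 51.8 CPM (NA) and 129 and 49.8 CPM (EDTA). Addback libraries were higher than all others, and Addback EDTA 1 was the highest of all. For EDTA in Addback the change was 0.74 (SE 0.42, adjusted p = 0.277) and the groups overlapped. It was -0.09 without Addback EDTA 1 and 1.27 (adjusted p = 0.0196) without Addback EDTA 2, so 1 library sets its value. The changes were 0.76 (SE 0.45) in Vector and -0.51 (SE 0.46) in B4-4, the latter 0.06 without B4-4 NA 1.

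**Figure D2:**
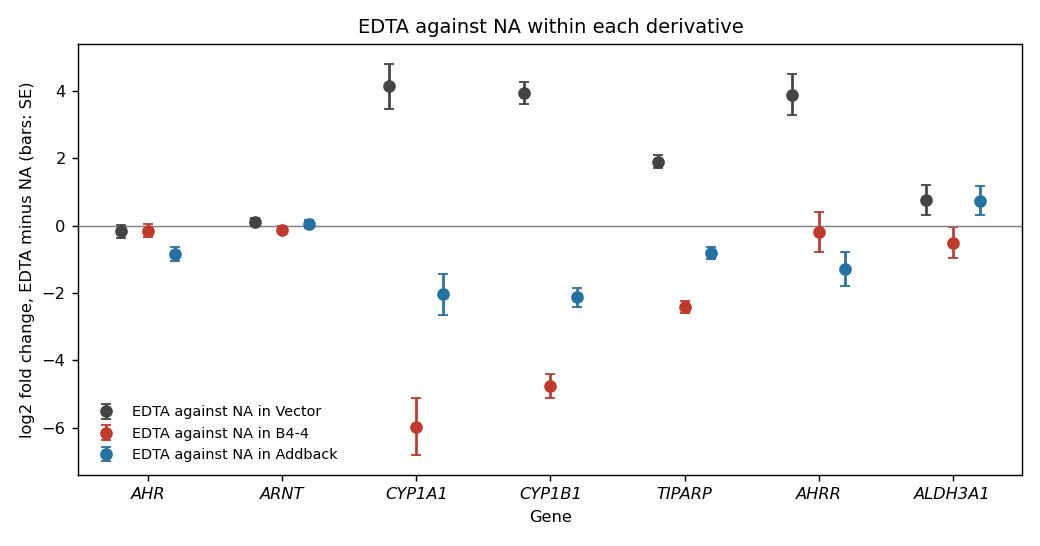
Points give the log2 fold change of EDTA against NA (vertical axis) for each gene in each derivative, with bars of 1 SE. CYP1A1, CYP1B1 and TIPARP lie above 0 in Vector and below 0 in B4-4 and Addback, AHRR lies at 3.88, -0.19 and -1.29, and ARNT lies within 0.12 of 0 in all 3.

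Counted together for EDTA in Addback, a contrast the choice of genes did not use, 3 of the 7 were called, CYP1B1, TIPARP and AHR, all lower, against 16.9% of all genes tested called in either direction and 8.29% called lower. Only 1 member was called without Addback NA 1, and 4 without B4-4 NA 1. In the same comparison 5 of the 7 had no overlap between EDTA and NA libraries, against 61.7% of all genes. In Vector 6 of the 7 had no overlap, where 15.3% of genes were called and 67.2% had no overlap. In B4-4 3 of the 7 had no overlap, where 19.9% of genes were called and 59.6% had no overlap. The Vector and B4-4 counts go with the choice of the genes and are given without a reading.

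Markers of other cell types also differed between the groups. The 9 fibroblast markers summed to 15.2 to 16.4 CPM in Vector NA, 30.7 to 30.8 in Vector EDTA, 18.2 to 30.3 in B4-4 NA, 16 to 16.2 in B4-4 EDTA, 56.8 to 57 in Addback NA and 37.8 to 68.2 in Addback EDTA. Of the 5 that could be tested, 0 were called higher, 2 lower and 3 were not called with EDTA in Addback. Of all genes 16.9% were called in either direction and 8.29% lower. Those 5 were COL1A1 at 9.96 to 24.4 CPM, DCN at 0.771 to 51.9, POSTN at 0 to 10.8, LUM at 1.15 to 4.06 and PDGFRB at 0.32 to 4.01. The untested COL1A2, COL3A1 and THY1 reached at most 3 counts and PDGFRA at most 8. The 7 immune and endothelial markers summed to 37.2 to 39.1 CPM in Vector NA, 32 to 34.2 in Vector EDTA, 21.3 to 38.9 in B4-4 NA, 10.7 to 11.4 in B4-4 EDTA, 79.4 to 85.8 in Addback NA and 20.4 to 69.6 in Addback EDTA. Of these 7 only CD14 and PECAM1 were tested and neither was called by edgeR or DESeq2 with EDTA in Addback (1 before adjustment), while CD3E and CDH5 were at 0 in all libraries and PTPRC reached 1 count. The part of these markers in the results for the AHR genes was not tested.

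The derivatives differed in the same targets when compared under 1 treatment. In NA, CYP1A1 and CYP1B1 were higher in B4-4 than in Vector by 3.17 (SE 0.67) and 2.21 (SE 0.30) on the log2 scale, and higher in Addback than in Vector by 3.97 (SE 0.68) and 3.67 (SE 0.32). In EDTA, both were lower in B4-4 than in Vector, by -6.94 (SE 0.86) and -6.51 (SE 0.37), and lower in Addback than in Vector, by -2.21 (SE 0.61) and -2.40 (SE 0.30). Addback exceeded B4-4 for CYP1A1 and CYP1B1 by 0.81 (SE 0.58) and 1.46 (SE 0.29) in NA and by 4.73 (SE 0.86) and 4.11 (SE 0.34) in EDTA. Without Addback EDTA 1 the differences in EDTA were -3.75 and -3.01 to Vector and 3.19 and 3.49 to B4-4, and without Addback EDTA 2 they were -1.48 and -1.98 to Vector and 5.46 and 4.53 to B4-4. These values are a description, because levels of CYP1B1 in Vector and B4-4 led to the choice of the genes, and CYP1A1 was known to move with it. The remaining 5 genes, whose own values the stated choice did not use, were tested in each of these 6 contrasts. The Vector and B4-4 libraries in them are those behind the choice, so these tests are not independent of it. This holds most for TIPARP, whose log2 CPM had r = 0.94 to that of CYP1B1 over the 12 libraries. The p-values of TIPARP in these contrasts are therefore no separate evidence from the choice.

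**Figure D3:**
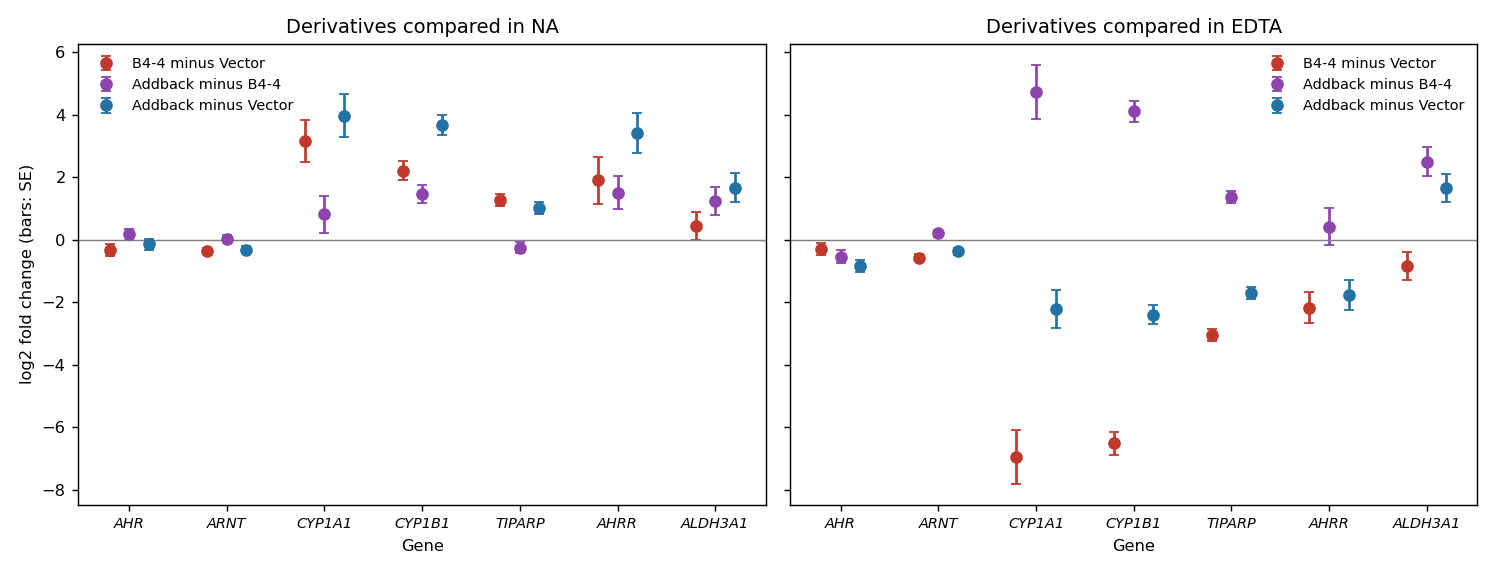
Points give the log2 fold change between 2 derivatives (vertical axis) in NA (left) and in EDTA (right), with bars of 1 SE. CYP1A1 and CYP1B1 are above 0 for B4-4 minus Vector in NA and at -6.94 and -6.51 in EDTA, whereas ARNT and AHR stay between -1 and 1 throughout.

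Between B4-4 and Vector in NA, 1 of the 5 tested genes was called, against 7.16% of all genes. TIPARP was 1.26 higher in B4-4 (SE 0.19, 2.4-fold, adjusted p = 0.00383). Without Vector NA 1 or Vector NA 2 that call was lost (adjusted p = 0.0547 and 0.0695), as it was in a fit of these 4 libraries alone (adjusted p = 0.148). AHRR (1.90, SE 0.76, adjusted p = 0.145, and 0.79 without B4-4 NA 1 and 2.89 without Vector NA 1), AHR (-0.32, SE 0.19, adjusted p = 0.326), ARNT (-0.36, SE 0.11, adjusted p = 0.0645) and ALDH3A1 (0.43, SE 0.45, adjusted p = 0.606, and -0.15 without B4-4 NA 1) did not pass. ARNT passed without B4-4 NA 1 (-0.52, adjusted p = 0.00346), without the filter on low counts (-0.38, adjusted p = 0.0479) and with the replicate number as a block (-0.36, adjusted p = 0.0498).

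Between B4-4 and Vector in EDTA, 3 of the 5 were called, against 43.4% of all genes. TIPARP fell by 3.05 (SE 0.20, 8.31-fold, adjusted p = 1.7e-06), with 37.1 and 35.9 CPM against 325 and 282 CPM. AHRR fell by 2.17 (SE 0.49, adjusted p = 0.0038), a count ratio of 0.219 (0.114 to 0.391), and ARNT fell by 0.58 (SE 0.11, 1.49-fold, adjusted p = 0.00113). Without B4-4 EDTA 2 the adjusted p of AHRR was 0.0503. AHR (-0.29, SE 0.19, adjusted p = 0.232) and ALDH3A1 (-0.85, SE 0.45, adjusted p = 0.167) did not pass. AHR passed without Vector EDTA 2 (-0.56, adjusted p = 0.0402). ALDH3A1 passed without Addback EDTA 1 or 2 (adjusted p = 0.0153 and 0.0165) and in the fit of 4 libraries (adjusted p = 0.000129).

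Between Addback and Vector in NA, 4 of the 5 were called, against 36.1% of all genes. AHRR was 3.41 higher in Addback (SE 0.64, adjusted p = 0.00158), with 44 against 4 counts in all, a ratio of 11.3 (4.11 to 43.3), and the fitted difference was 4.4 without Vector NA 1 and 2.80 without Vector NA 2. TIPARP was 1.02 higher (SE 0.19, 2.02-fold, adjusted p = 0.0016), ALDH3A1 1.67 higher (SE 0.45, 3.18-fold, adjusted p = 0.0232) and ARNT lower by -0.32 (SE 0.11, adjusted p = 0.0356). The call of ALDH3A1 was lost without either Vector NA library or either Addback NA library (adjusted p = 0.0696 to 0.134) and without the filter on low counts (adjusted p = 0.0862). The call of ARNT was lost without any 1 of the Vector, B4-4 EDTA or Addback NA libraries (adjusted p = 0.0573 to 0.182) and with upper-quartile factors (adjusted p = 0.0638). Neither of the calls of AHRR and TIPARP was lost without any single library. AHR was -0.15 (SE 0.19, adjusted p = 0.558).

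Between Addback and Vector in EDTA, all 5 were called, against 30.0% of all genes. TIPARP fell by 1.69 (SE 0.19, 3.23-fold, adjusted p = 9.93e-05), AHRR by 1.76 (SE 0.48, adjusted p = 0.0156), AHR by 0.83 (SE 0.19, 1.78-fold, adjusted p = 0.00757) and ARNT by 0.37 (SE 0.11, adjusted p = 0.0215). ALDH3A1 was 1.65 higher (SE 0.44, 3.14-fold, adjusted p = 0.0252), so it alone of the 5 was higher in Addback in both treatments. Its difference in EDTA was 0.81 without Addback EDTA 1 and 2.17 without Addback EDTA 2. Only the call of TIPARP held without every single library in turn. AHR was lost without Vector EDTA 1 (-0.51, adjusted p = 0.0889), AHRR without any 1 of the Vector EDTA or Addback EDTA libraries (adjusted p = 0.054 to 0.0797), and ARNT without Vector EDTA 1, Vector EDTA 2 or Addback EDTA 2 (adjusted p = 0.0814, 0.0935 and 0.124). ALDH3A1 was lost without any 1 of the Vector or B4-4 EDTA libraries (adjusted p = 0.0533 to 0.129), without the filter on low counts (adjusted p = 0.0888) and in a fit of the 4 libraries alone (adjusted p = 0.178).

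Between Addback and B4-4, 0 of the 5 were called in NA by edgeR's quasi-likelihood test, against 23.6% of all genes. Before adjustment 2 had a p under 0.05, AHRR (1.51, SE 0.52, adjusted p = 0.0516) and ALDH3A1 (1.24, SE 0.44, adjusted p = 0.0825), and DESeq2 called 1, ALDH3A1 (adjusted p = 0.0437). Both passed with the replicate number as a block (adjusted p = 0.0488 and 0.0439) and without Addback EDTA 1 or 2 (AHRR 0.0491 and 0.0495, ALDH3A1 0.00389 and 0.00433), and AHRR also without B4-4 NA 1 (2.63, adjusted p = 0.0133) and with upper-quartile factors (adjusted p = 0.0473). AHRR was 0.92 without B4-4 NA 2, and ALDH3A1 was 1.83 without B4-4 NA 1. TIPARP was -0.25 (SE 0.18, adjusted p = 0.353), and it was 0.07 without B4-4 NA 1 and -0.50 (adjusted p = 0.0444) without B4-4 NA 2. In EDTA 2 of the 5 were called, against 14.1% of all genes: TIPARP was 1.36 higher in Addback (SE 0.19, 2.57-fold, adjusted p = 0.000957) and ALDH3A1 2.50 higher (SE 0.46, 5.64-fold, adjusted p = 0.0116). ALDH3A1 was 1.65 without Addback EDTA 1 and 3.01 without Addback EDTA 2, and its call was lost without B4-4 EDTA 1 or B4-4 EDTA 2 (adjusted p = 0.119 and 0.103) and in the fit of 4 libraries (adjusted p = 0.0908). AHR was -0.54 (SE 0.20, adjusted p = 0.0895) and passed without B4-4 NA 1 or B4-4 NA 2 (adjusted p = 0.0379 and 0.0429), without the filter on low counts (adjusted p = 0.00776) and in the fit of 4 libraries (adjusted p = 0.0483).

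Markers of other cell types differed between derivatives as well. All 5 tested fibroblast markers were called higher in Addback than in Vector in NA, with a median of 2.17, against 36.1% of all genes called, and 1 was in EDTA, against 30.0%. Against B4-4, 3 were called higher in Addback in NA and 2 in EDTA, against 23.6% and 14.1%. For B4-4 against Vector 2 were called lower in EDTA, against 43.4%, and 0 in NA by edgeR or DESeq2 (1 before adjustment). CD14 was called higher in Addback than in Vector (1.91, SE 0.52, adjusted p = 0.0234) and than in B4-4 (1.98, SE 0.52, adjusted p = 0.0304) in NA. In EDTA 1 of the 2 tested immune and endothelial markers was called lower in B4-4 than in Vector, against 43.4% of all genes. Also in EDTA, 1 of the 2 was called higher in Addback than in B4-4, against 14.1%. The part of these markers in the differences of the AHR genes was not tested.

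Across the 12 libraries the targets followed each other to different degrees. Pearson's r of log2 CPM was 0.99 between CYP1A1 and CYP1B1 (Spearman's rho 0.98), and 0.96 without the 2 libraries farthest from the median of CYP1A1. Between TIPARP and either P450 gene r was 0.94 (rho 0.91 for CYP1A1 and 0.94 for CYP1B1), and 0.86 without the 2 libraries farthest from the median of that P450 gene. For AHRR r was 0.61 to CYP1A1 (rho 0.78) and 0.68 to CYP1B1 (rho 0.80), and without the farthest 2 it was 0.78 and 0.90. AHRR thus had a lower r to CYP1B1 than TIPARP over all 12 libraries and a higher one without those 2. AHR had r = 0.16 to CYP1A1 (rho 0.20) and 0.09 without the farthest 2, and ARNT had 0.36 (rho 0.45) and -0.12. The members had r = 0.04 (AHR) to 0.67 (ARNT) to ITGB4, with 0.25 for CYP1A1 and 0.35 for CYP1B1. These values describe 12 libraries that share a group in pairs, and the genes were chosen with results known, so no p is given.

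**Figure D4:**
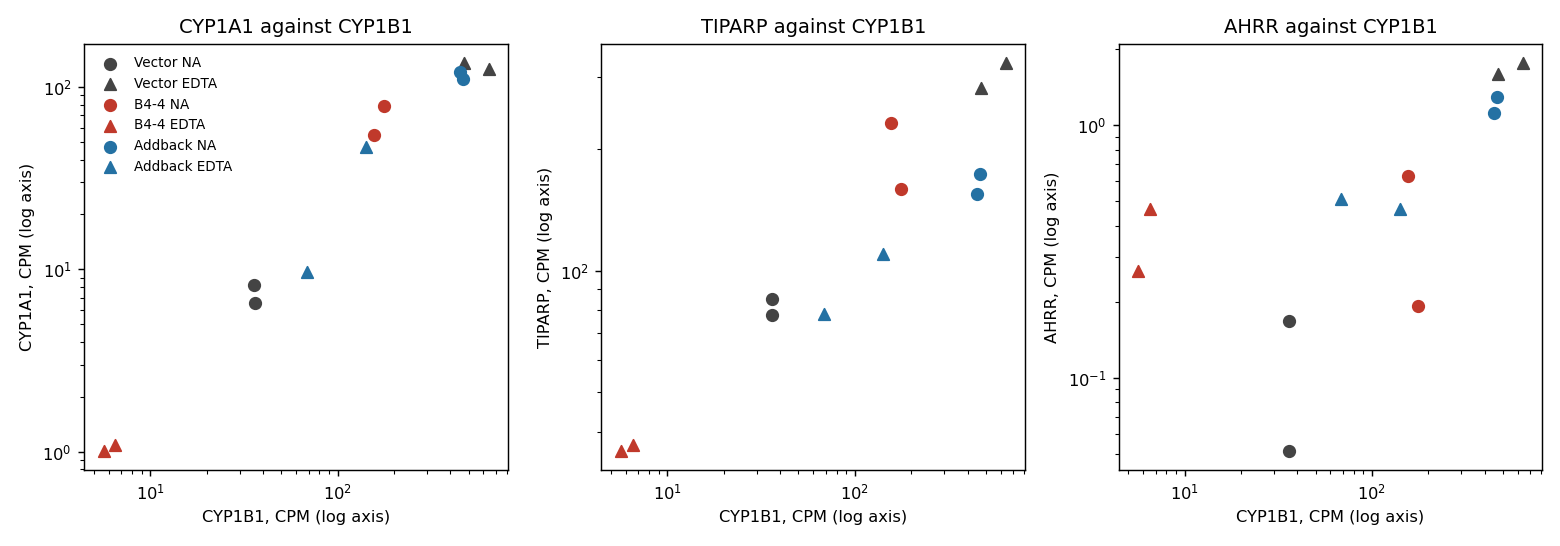
Each point is 1 of 12 libraries, with CYP1B1 on the horizontal axis and CYP1A1, TIPARP or AHRR on the vertical axis, both in CPM on log axes. The groups have the same order for CYP1A1 as for CYP1B1, TIPARP overlaps between Addback NA (155 and 173 CPM) and B4-4 NA (232 and 159 CPM) although CYP1B1 is higher in Addback NA, and for AHRR the Vector NA libraries (0.168 and 0.0514 CPM) lie below the B4-4 EDTA libraries (0.465 and 0.266 CPM) although CYP1B1 is higher there.

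Among 10481 genes at a mean of at least 5 CPM, those with the pattern most like CYP1B1 were CYP1B1-AS1 (r = 0.992), CYP1A1 (0.986) and EIF4B (0.973). For CYP1A1 they were CYP1B1, CYP1B1-AS1 (0.977) and RIPK4 (0.97). TIPARP was most like RIPK4 (0.963), SLU7 (0.962) and PNRC1 (0.962), and AHRR most like ZBTB44 (0.946), DDX17 (0.92) and TOR1AIP2 (0.906). AHR was most like TBC1D8B (0.926), RBFOX2 (0.908) and CNOT4 (0.898), ARNT most like ADGRG2 (0.966), RABGAP1 (0.96) and SYN3 (0.956), and ALDH3A1 most like SUCLA2 (0.931), MRPS6 (0.926) and S100A4 (0.904). No other member is thus among the 3 nearest genes of TIPARP, AHRR, AHR, ARNT or ALDH3A1. AHRR itself, at a mean of 0.711 CPM, was under the limit of 5 CPM and could not be listed for another member.

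Genes around the receptor were followed through 4 lists. Of 16 genes of the AHR complex, its partners and coactivators, 4 were called higher with EDTA in Addback, 0 were called lower and 12 were not called, against 16.9% of all genes called, with a median log2 change of -0.01 beside 0.01 over all genes. The chaperone gene HSP90AA1 stood at 3276 and 4224 CPM in EDTA and 2061 and 2276 CPM in NA (0.79, SE 0.11, adjusted p = 0.000731). SRC, a tyrosine kinase held in the cytoplasmic receptor complex, was 0.91 higher (SE 0.14, adjusted p = 0.00135) and HSP90AB1 0.46 higher (SE 0.08, adjusted p = 0.00232). The coactivator NCOA1 was 0.39 higher (SE 0.11, adjusted p = 0.0376), and its call was lost in 10 of 12 fits that left out a library, those without any 1 of the libraries other than B4-4 NA (adjusted p = 0.0517 to 0.181). In Vector the list had a median of 0.06, with CREBBP at 0.75 (SE 0.11), and in B4-4 a median of -0.02, with SRC at 0.78 (SE 0.14). Between derivatives, 3 of the 16 were called for B4-4 against Vector in NA, 7 in EDTA, 6 for Addback against B4-4 in NA and 2 in EDTA, and 5 for Addback against Vector in NA and 4 in EDTA. The shares of all genes called in these contrasts were, in the same order, 7.16, 43.4, 23.6, 14.1, 36.1 and 30.0%. The list was near or below that background in all of them but B4-4 against Vector in NA and Addback against B4-4 in NA.

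Of 20 other reported AHR target genes 16 were tested, and CYP1A2, CYP2S1, GSTA1 and GSTA2 reached at most 14, 3, 1 and 8 counts. With EDTA in Addback 3 were called higher, 5 lower and 8 not called, against 16.9% of all genes called, with a median of -0.14. The growth factor gene AREG was 125 and 150 CPM in EDTA and 19.9 and 25.8 CPM in NA (2.59, SE 0.38, adjusted p = 0.00394), in the direction opposite to CYP1B1. XDH, the gene of xanthine dehydrogenase, fell by 0.70 (SE 0.09, adjusted p = 0.000643). IL24 fell by 2.17 (SE 0.48, adjusted p = 0.0099), with -3.23 without Addback EDTA 1 and -1.56 without Addback EDTA 2, and that call was lost without Addback NA 1 or Addback EDTA 2 (adjusted p = 0.098 and 0.0661). UGT1A6 was 0.0585 and 0.0569 CPM in EDTA, below a count of 3, and 1.12 and 0.488 CPM in NA (adjusted p = 0.0107). Its call was also lost without Addback NA 1 or Addback EDTA 2 (adjusted p = 0.113 and 0.0718), and it shares exons with the other UGT1A genes. Outside the 4 with the smallest p, NQO1 and NFE2L2 were called lower, and HES1 and ABCG2 higher.

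In Vector, where CYP1A1 and CYP1B1 were higher with EDTA, the same list had a median of -0.78. AREG stood at -2.36 (SE 0.36), EREG, another EGF receptor ligand gene, at -2.00 (SE 0.32) and STC2 at -1.71 (SE 0.14). In B4-4, where the P450 genes were lower, the median was 0.27, with AREG at 2.12 (SE 0.36) and EREG at 1.98 (SE 0.32). The genes just named are among the largest changes, and the list did not move as one. NFE2L2 had the directions of CYP1B1, at 0.74 in Vector and -0.85 in B4-4 (both SE 0.12). These values have no test. The B4-4 NA libraries were 159 and 63.9 CPM for AREG, apart by more than 2-fold. Without B4-4 NA 1 the B4-4 changes of AREG and EREG were 2.92 and 2.72, and without B4-4 NA 2 they were 1.62 and 1.51. For B4-4 against Vector in NA 1 of the 16 was called higher and 4 lower (7.16% of all genes called), and in EDTA 9 higher and 1 lower (43.4%), with XDH at 1.17 (SE 0.10, adjusted p = 4.06e-06) and IL1B at 3.63 (SE 0.39, adjusted p = 0.000156). For Addback against Vector 4 were called higher and 3 lower in NA (36.1%) and 7 higher and 2 lower in EDTA (30.0%). NQO1, the quinone reductase gene, was higher in Addback than in Vector in both (1.52, SE 0.08, adjusted p = 2.15e-07 in NA, and 1.10, SE 0.08, adjusted p = 6.05e-06 in EDTA). NQO1 was also higher in B4-4 than in Vector (0.83, adjusted p = 0.00028 in NA, and 0.49, adjusted p = 0.000633 in EDTA). Addback exceeded B4-4 for it as well (0.69, adjusted p = 0.000166 in NA, and 0.61, adjusted p = 0.00057 in EDTA). For Addback against B4-4 4 were called higher and 1 lower in NA (23.6%), and 2 higher and 3 lower in EDTA (14.1%).

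Of 14 tryptophan enzymes and transporters, which supply or remove AHR ligands, 8 were tested. The enzymes that open the tryptophan ring were not detected at a level that allows a test: IDO1 reached 1 count, IDO2 was at 0 in all libraries and TDO2 reached 4 counts. With EDTA in Addback 2 were called higher and 2 lower, against 16.9% of all genes called, with a median of -0.04. KYNU, the kynureninase gene, was 97.2 and 139 CPM in EDTA and 46.6 and 44.2 CPM in NA (1.38, SE 0.17, adjusted p = 0.000388). SLC3A2, a subunit of amino acid transporters, was 0.59 higher (SE 0.14, adjusted p = 0.0143), while KYAT1 (-0.51, SE 0.14, adjusted p = 0.0276) and WARS1 (-0.54, SE 0.15, adjusted p = 0.0306) were lower. Without Addback NA 1, Addback NA 2 or Addback EDTA 2 the calls of SLC3A2 (adjusted p = 0.0704, 0.114 and 0.102), KYAT1 (0.188, 0.0899 and 0.127) and WARS1 (0.165, 0.114 and 0.151) were lost. KYAT1 was also lost without Vector NA 1 or 2 (adjusted p = 0.0524 and 0.0523) and WARS1 without Addback EDTA 1 (adjusted p = 0.0559). The medians were -0.02 in Vector and -0.29 in B4-4. Between derivatives the called genes, higher and lower, were 1 and 0 for B4-4 against Vector in NA, 1 and 2 in EDTA, 3 and 2 for Addback against B4-4 in NA, 3 and 0 in EDTA, 1 and 2 for Addback against Vector in NA, and 2 and 1 in EDTA. All genes were called at 7.16, 43.4, 23.6, 14.1, 36.1 and 30.0% in that order. For B4-4 against Vector in EDTA, 3 of 8 is no more than the background. The list was also near the background for B4-4 against Vector in NA and for Addback against Vector in both treatments.

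Of 11 genes of oestrogen and catechol metabolism, the pathway in which the CYP1B1 product acts, 9 were tested and CYP19A1 reached at most 6 counts. With EDTA in Addback 1 was called higher, HSD17B7 (0.57, SE 0.13, adjusted p = 0.0132), and 1 lower, SULT1E1, against 16.9% of all genes called, with a list median of -0.13. SULT1E1, the oestrogen sulfotransferase gene, was 5.67 and 6.08 CPM in EDTA and 10 and 10.6 CPM in NA (-0.81, SE 0.22, adjusted p = 0.0264). Both calls were lost without Addback NA 1, Addback NA 2 or Addback EDTA 2 (adjusted p = 0.144, 0.0512 and 0.121 for HSD17B7, and 0.136, 0.144 and 0.0732 for SULT1E1). SULT1E1 was also lost without Addback EDTA 1 (adjusted p = 0.0626). In Vector SULT1E1 stood at 2.64 (SE 0.29) and in B4-4 at -2.02 (SE 0.37), the same directions as CYP1B1, beside list medians of 0.04 and -0.13. Its B4-4 change was -2.62 without B4-4 EDTA 2. Between Addback and Vector in NA it was 4.11 higher (SE 0.28, adjusted p = 1.41e-06), and between B4-4 and Vector in EDTA it fell by 3.53 (SE 0.33, adjusted p = 9.11e-06, and -4.13 without B4-4 EDTA 2). Addback exceeded B4-4 by 2.99 in NA and 4.19 in EDTA (SE 0.26 and 0.32). Between Addback and Vector in EDTA, however, SULT1E1 was 0.66 higher (SE 0.23, adjusted p = 0.046), opposite to CYP1B1 at -2.40. That call was lost in 10 of 12 fits that left out a library. Vector and B4-4 libraries led to the choice of genes, so these tests are not independent of it. Over the derivative contrasts, the list had 0 calls by edgeR for B4-4 against Vector in NA (5 genes before adjustment, 2 calls by DESeq2) and 4 in EDTA, 4 for Addback against B4-4 in NA and 5 in EDTA, and 4 for Addback against Vector in each treatment. In the same order 7.16, 43.4, 23.6, 14.1, 36.1 and 30.0% of all genes were called. By edgeR the list was not above that share for B4-4 against Vector in NA. At 4 of 9 it was near that share for B4-4 against Vector in EDTA and for Addback against Vector in NA.

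**Figure D5:**
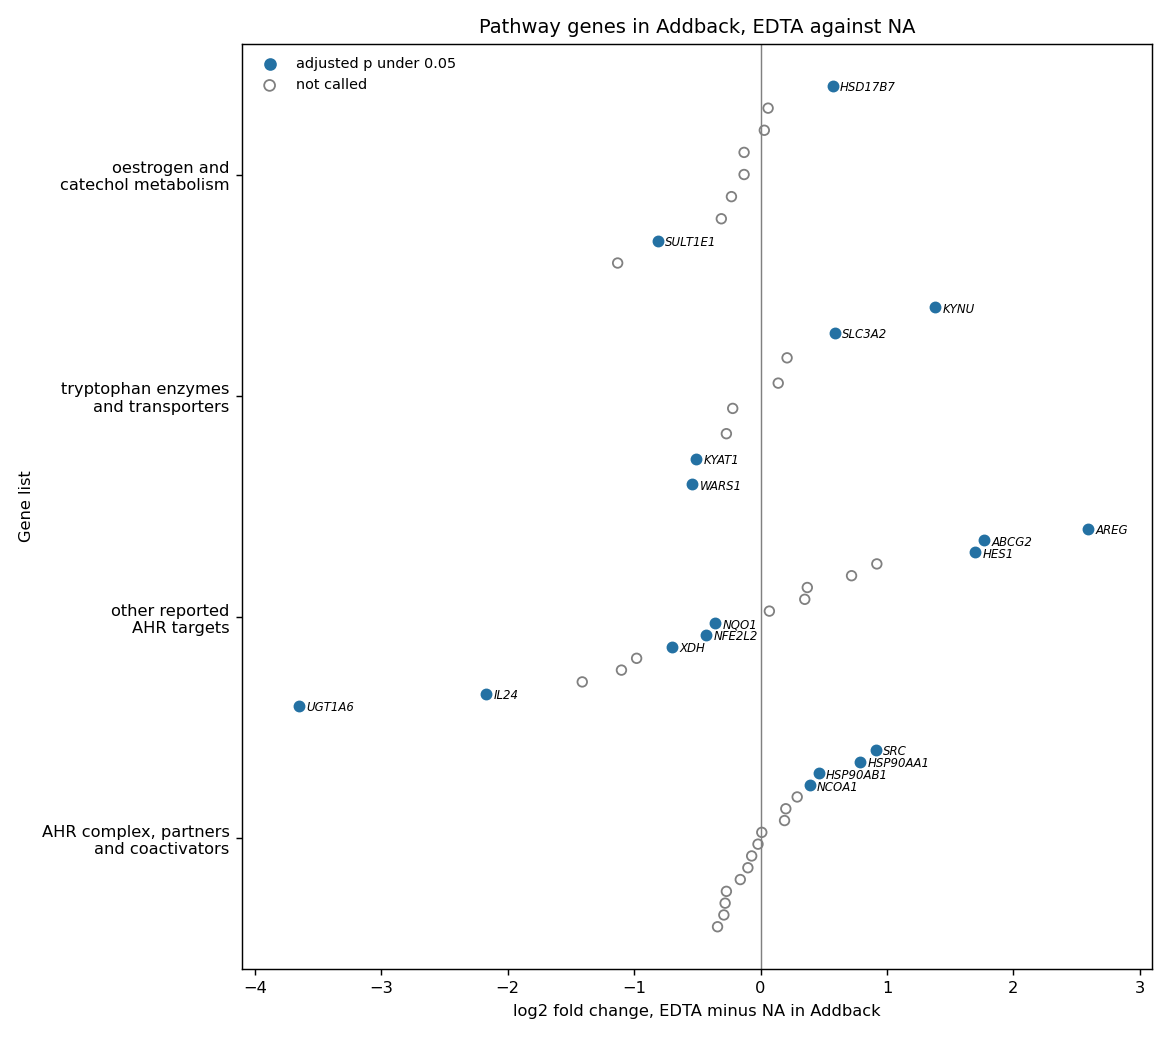
Each point is a tested gene of 4 lists, placed by its log2 fold change of EDTA against NA in Addback (horizontal axis), with filled points at an adjusted p under 0.05. AREG at 2.59 and UGT1A6 lie farthest from 0, and the called genes of the AHR complex list all lie to the right.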

How the data were processed

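RNA of 12 libraries was prepared with a stranded poly(A) kit, per the labels' protocols. The deposited values are whole-number read counts per gene. TopHat2 2.1.1, SAMtools 1.4.1 and featureCounts 1.5.3, and the builds GRCh38, hg19 and hg38, are named without roles per the submitters' processing notes. The sources used here do not give the annotation release or the strand setting. Of 58233 gene identifiers, 57895 matched GENCODE 29 (GRCh38), which gave symbols, coordinates and exon lengths.

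Counts were fitted with edgeR 4.0.16 in R 4.3.3 (TMM, filterByExpr over 6 groups with a minimum count of 10, robust quasi-likelihood, group means over all 12 libraries). Adjusted p-values are Benjamini-Hochberg over 15749 genes, called under 0.05. The SE is the absolute log2 fold change over the root of F. Tested genes held 99.87 to 99.92% of each total. The script was tested on simulated data. The mitochondrially encoded genes held 0 counts.

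The members, lists and alternatives were chosen with earlier results of these data known. In 1 list a gene is not reported here and is left out of the list's counts. Named genes were the members, CYP1B1-AS1, ITGB4, the 3 most alike genes per member, and up to 4 genes per list and contrast, by smallest p or, without a test, by largest change at a mean of at least 1 CPM. Alternatives were RLE and upper-quartile factors, DESeq2 1.42.0, no filter, a block for the replicate number, the 2 compared groups alone, and leaving out each library.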

Additional observations from a re-analysis of the deposited data

Results flagged for a closer look

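CYP1A1, CYP1B1 and TIPARP moved with EDTA in opposite directions in different derivatives, in every library. For CYP1A1 the log2 change was 4.13 in Vector against -5.97 in B4-4 and -2.04 in Addback. For CYP1B1 it was 3.94 in Vector against -4.77 in B4-4 and -2.13 in Addback, and for TIPARP 1.9 in Vector against -2.42 in B4-4 and -0.81 in Addback. AHRR moved by 3.88 in Vector and -1.29 in Addback, with every EDTA library on the same side of the NA libraries within each. The difference in the EDTA change between derivatives was not tested for any of these genes, because the choice rested on the EDTA changes of CYP1B1 in Vector and B4-4. The Addback values of CYP1A1 and AHRR did not pass the threshold on their own.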

How the results depend on the processing

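With 2 libraries per group, leaving out a library leaves a lone library that is assumed to vary like the other groups. The cause of the changes below was not tested. Genes called ranged, over fits without a library, from 615 to 4319 for EDTA in Addback (2666 with all), 724 to 4020 for EDTA in Vector (2416) and 726 to 4549 for EDTA in B4-4 (3138). For B4-4 against Vector they ranged from 81 to 3319 in NA (1128) and 4383 to 8169 in EDTA (6831), for Addback against B4-4 from 1324 to 4680 in NA (3723) and 692 to 3756 in EDTA (2217), and for Addback against Vector from 3137 to 7269 in NA (5681) and 2718 to 6216 in EDTA (4728). Members called ranged from 1 to 4 for EDTA in Addback (3). For B4-4 against Vector they ranged from 0 to 2 in NA (1) and 2 to 4 in EDTA (3), for Addback against B4-4 from 0 to 2 in NA (0) and 1 to 3 in EDTA (2), and for Addback against Vector from 2 to 4 in NA (4) and 1 to 5 in EDTA (5).

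In fits of the 2 compared groups alone, genes called were 4672 for EDTA in Vector, 291 for EDTA in B4-4, 6 for B4-4 against Vector in NA, 1290 for Addback against B4-4 in NA and 9318 for Addback against Vector in NA. Without the filter on low counts B4-4 against Vector in NA had 1874 genes. For that contrast, members called were 2 without the filter and 0 in the fit of 2 groups, and for Addback against B4-4 in NA they were 1 with upper-quartile factors and 1 with DESeq2. With upper-quartile factors the share of calls that were higher for EDTA in B4-4 was 36.8%, against 49.6%. No scaling moved the median of all genes by more than 0.086 (log2).

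With the replicate number as a block, members called were 2 for B4-4 against Vector in NA and 2 for Addback against B4-4 in NA, and the calls of members in the other tested contrasts kept their number. Deviations of same-numbered libraries correlated at -0.05 to 0.07, so no pairing by number was seen. In most groups the 2 libraries differed in few genes, so these correlations cannot exclude a pairing. In that block fit 2641 genes were called for EDTA in Addback.

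Named genes changed sign in some fits without a library, whose lowest and highest values were as follows. EDTA in Addback gave -0.01 to 0.12 for ARNT and -0.09 to 1.27 for ALDH3A1, the low ends without Addback EDTA 1. EDTA in Vector gave -0.49 to 0.09 for AHR, the high end without Vector EDTA 2. EDTA in B4-4 gave -0.77 to 0.91 for AHRR, -0.34 to 0.08 for AHR, -0.25 to 0.03 for ARNT and -0.91 to 0.06 for ALDH3A1, the high ends without B4-4 NA 1, and AHRR was also 0.13 without B4-4 EDTA 2. In that contrast SULT1A1 of the oestrogen list gave -0.78 to 0.11, the high end without B4-4 NA 2. B4-4 against Vector gave -0.15 (without B4-4 NA 1) to 0.83 for ALDH3A1 in NA, and -0.56 to 0.01 (without Vector EDTA 1) for AHR in EDTA. Addback against B4-4 in NA gave -0.5 to 0.07 (without B4-4 NA 1) for TIPARP, and, with the low ends without B4-4 NA 2, -0.04 to 0.41 for AHR and -0.11 to 0.21 for ARNT. Depth limits the values of AHRR, at 1 to 38 counts per library, and of UGT1A6.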
